A study of Mus musculus with 4 samples.

Results

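The immediate early genes described here are 10 of the 8251 genes with a probe set on 4 expression arrays that were hybridised with total RNA from mouse skeletal muscle. They are Fos, Fosb, Jun, Junb, Jund, Egr1, Atf3, Ier2, Zfp36 and Btg2. All 10 genes had a probe set, and they were read at the 15 probe sets to which the platform annotation gives one of these symbols and no other, out of 12422 without the controls. The arrays are labelled J (replicates 1a and 1c, n = 2) and NJ (replicates 1a and 1d, n = 2), all at 0 h and all with the code Ctr. The codes are not spelled out in the labels, and strain, age, sex, the muscle and any treatment are not stated in the labels. The title of the series names the neuromuscular junction, and no label ties an array to an animal of its own, so p-values measure only the spread between these samples, which may be technical. Where values of a group are given as a pair below, the array labelled 1a comes first.

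Immediate early genes are switched on within minutes of a stimulus, without new protein synthesis, by kinases that act on factors already bound at their promoters, and their short-lived transcripts soon fade. Fos, Jun and ATF proteins pair to form AP-1, a transcription factor that passes the signal on to later genes. In muscle the genes respond to contraction, nerve activity, stretch and injury, and they also respond to dissection and handling, so their level at 0 h is often read as a mark of how tissue was taken.

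None of the 10 genes passed the test of J against NJ (limma, adjusted p = 0.999 for each), and the differences of their tested probe sets ran from −1.04 for Zfp36 to 0.37 for Ier2 on a log2 scale. The values also lined up in part with the replicate label. At a tested probe set, Jun, Junb, Jund, Egr1, Ier2 and Btg2 were higher on both 1a arrays than on J 1c and NJ 1d. This split was made after the values were seen. Over all tested probe sets 23.1% lay above on both 1a arrays and 22.9% below. Of the member probe sets in this order, only those of Jun, Junb and Jund kept it when each array was centred on its median. The shares over all were then 16.9% above and 31.8% below. Fos, Fosb, Atf3 and Zfp36 did not show this order at their tested probe sets, while a dim, untested probe set of Atf3 showed it with either scaling.

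Some facts of the arrays touch these results. The median deposited signal was 375.5 on J 1a, 366 on NJ 1a, 300.4 on J 1c and 280 on NJ 1d. The arrays labelled 1a carry full digits in the deposited table and the others 1 decimal, so label and number format cannot be told apart. The medians of the log2 values differed by 0.38 between arrays. Differences are given on log2(signal + 32) values that were then quantile normalised, unless another scale is named. This scale understates the change of dim probe sets. Markers of the muscle fibre were bright, as for the skeletal actin gene Acta1 (named after its values were seen), with signals from 32990 to 207533. Their summed signal over 13 genes was 252996 on J 1c against 829265 to 1368730 elsewhere. The ratio of the 3′ to the 5′ control probe set of Gapdh was 1.43 on J 1c and 7.48 to 8.34 on the other arrays. The 3′ signal of Gapdh was 22552 on J 1c against 87950.5 to 192919 elsewhere, and its 5′ signal 15802 against 11760 to 25364. The ratio of Actb was 4.61 on J 1c and 4.75 to 8.46 on the others. That of Tfrc was 13.7 on NJ 1a and 1.75 to 3.35 on the others, so the controls did not single out the same array. The highest signal on J 1c was 41086, against 125534 to 231943 on the other arrays. J 1c thus stood apart in its brightest signals on the deposited scale. After quantile normalisation Acta1 was highest on J 1c, and the median of the fibre genes on J 1c minus their mean on the other arrays was −0.064. Yet the fibre genes did not move together. J 1c was the highest array for 4 of 12 and the lowest for 5, beside 1515 and 1442 of all 6773 genes tested. Atp2a1 was 13.6 on J 1c against 16.1 to 16.5 on the others, and Myh4 14.6 against 16.7 to 16.9. Differences without J 1c are given for every member below.

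Of the 15 probe sets, 11 were bright enough to test (a mean above the 25th percentile), and each gene had at least 1 of them. The other 4 were a second probe set of Fos and of Egr1 and 2 of Atf3. All signals were above 0. Signals of different probe sets are not compared with each other, since probes differ in how well they bind.

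The promoter windows of some members are printed to show which letters known to recruit the early response they hold. RefSeq's promoter table (GRCm38.p6) held 8 of the 10 genes, all but Egr1 and Ier2. The 250 bases before the start of the gene were searched on both strands for the cAMP response element TGACGTCA, its shorter core TGACG, which lies within it, the AP-1 site TGACTCA, the serum response CArG box, the TATA box TATAAA and the Egr site GCGGGGGCG. Junb (chr8:84978749-84978998, minus strand) and Btg2 (chr1:134079156-134079405, minus strand) had higher signals on the 1a arrays at a tested probe set. Fos (chr12:85473640-85473889, plus strand) and Zfp36 (chr7:28379229-28379478, minus strand) did not. Capitals mark the response element or its core, the CArG box and the TATA box, and each sequence ends at the base before the start.
Junb: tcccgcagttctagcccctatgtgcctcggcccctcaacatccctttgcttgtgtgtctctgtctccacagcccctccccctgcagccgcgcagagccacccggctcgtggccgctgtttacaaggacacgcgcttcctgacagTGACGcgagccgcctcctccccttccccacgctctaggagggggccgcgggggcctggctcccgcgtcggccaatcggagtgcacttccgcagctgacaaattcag
Btg2: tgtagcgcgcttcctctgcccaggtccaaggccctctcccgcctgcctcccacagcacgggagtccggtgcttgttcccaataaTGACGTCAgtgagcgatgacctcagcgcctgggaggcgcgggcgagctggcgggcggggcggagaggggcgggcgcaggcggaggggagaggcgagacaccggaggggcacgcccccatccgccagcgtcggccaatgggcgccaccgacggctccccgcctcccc
Fos: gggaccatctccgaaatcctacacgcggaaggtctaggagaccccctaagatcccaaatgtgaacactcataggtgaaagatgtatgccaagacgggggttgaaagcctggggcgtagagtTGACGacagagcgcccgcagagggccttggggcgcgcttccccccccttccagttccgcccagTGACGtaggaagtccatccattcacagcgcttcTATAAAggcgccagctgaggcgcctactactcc
Zfp36: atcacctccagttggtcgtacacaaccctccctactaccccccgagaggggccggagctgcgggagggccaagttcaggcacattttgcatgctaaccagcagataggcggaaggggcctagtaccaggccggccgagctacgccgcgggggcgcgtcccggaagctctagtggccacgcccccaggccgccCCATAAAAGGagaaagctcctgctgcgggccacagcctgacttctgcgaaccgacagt

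The full response element was found in Btg2 alone of the 8, beside 1.77% of 27025 genes in the table. The core was in 5 of 8 (Fos, Fosb, Junb, Atf3 and Btg2), beside 19.8% of all. It was thus found both in genes with higher signals on the 1a arrays and in genes without. The CArG box was in Zfp36 alone (1.62% of all), 58 to 49 bases before its start, and the TATA box in Fos alone (14.3% of all), 33 to 28 bases before. The Egr site was in Fosb and Zfp36 (2.93% of all), and the AP-1 site in 0 of 8 (5.16% of all). A match describes the letters of the window and no more.

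Fos, the founding AP-1 subunit and the most used marker of recent stimulation, had signals of 870 on J 1a and 1470 on J 1c against 1334 on NJ 1a and 792 on NJ 1d. The highest and the lowest array belonged to different groups and the groups overlapped. The difference of J minus NJ was 0.04 ± 0.51 (standard error of the limma fit). It was −0.66 from NJ 1a to J 1a and 0.75 from NJ 1d to J 1c, so its sign depended on the pair. The dim probe set of Fos had 26.7 and 77.7 on the J arrays and 130 and 51.1 on the NJ arrays and was not tested.

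Fosb, a close relative of Fos, had signals of 712 and 943 on the J arrays and 645 and 572 on the NJ arrays. Each J value exceeded each NJ value, and the NJ values were nearly equal after normalisation. The difference was 0.34 ± 0.56. Fos and Fosb shared their highest deposited signal on J 1c and their lowest on NJ 1d.

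Jun, the partner of Fos in AP-1, had signals of 795 and 402 on the J arrays and 1255 and 568 on the NJ arrays. The J value was the lower of each pair, but the groups overlapped, with both 1a arrays high. The difference was −0.60 ± 0.62, with −0.70 between the 1a arrays and −0.50 between the others. Jund, the Jun protein that most tissues make at rest, had signals of 9014 and 5149 on the J arrays and 8772 and 4053 on the NJ arrays. Here too the 1a arrays were high in both groups, and J minus NJ was 0.23 ± 0.50.

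Junb, a Jun protein that is induced quickly and that supports muscle mass, varied most among the members. Its brighter tested probe set had signals of 1557 on J 1a and 196 on J 1c against 1153 on NJ 1a and 446 on NJ 1d. The other tested probe set had 642 and 128 on the J arrays and 333 and 267 on the NJ arrays. At both, J 1a was the highest array and J 1c the lowest, so the J arrays enclosed the NJ arrays. The differences of J minus NJ were −0.33 ± 0.87 and −0.02 ± 0.85. Without J 1c they were 0.98 and 0.86, opposite in sign to the values with it, and without J 1a they were −1.69 and −0.94. Without NJ 1a the brighter probe set gave 0.26.

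Atf3, an ATF protein induced by many kinds of cell stress, had signals of 438 and 595 on the J arrays and 670 and 552 on the NJ arrays at its tested probe set. The groups overlapped and the difference was −0.33 ± 0.63. Of the dim probe sets, one had 255 and 47.7 on the J arrays and 105 and 45.5 on the NJ arrays, and the other had 59.8 and 42.9 against 53.0 and 85.3. The 3 probe sets of Atf3 thus gave 3 different orders of the arrays.

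Egr1, a zinc finger factor that muscle raises on contraction and stretch, had signals of 1788 and 1366 on the J arrays and 3072 and 1457 on the NJ arrays. NJ 1a stood above the other arrays, and the groups overlapped. The difference was −0.48 ± 0.48, and 0.059 without NJ 1a. Its dim probe set had 71.9 and 26.5 on the J arrays and 23.1 and 12.0 on the NJ arrays. Ier2, a nuclear protein of the same early wave, had signals of 1286 and 953 on the J arrays and 1115.5 and 579 on the NJ arrays, overlapping groups and a difference of 0.37 ± 0.52.

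Zfp36, which encodes tristetraprolin, a protein that speeds the decay of cytokine and other early messages, had signals of 191 and 195 on the J arrays and 288 and 634 on the NJ arrays. Each J value was under each NJ value, and NJ 1d was the highest array. The difference of −1.04 ± 0.81 was the largest in size among the members with all 4 arrays, and without NJ 1d it was −0.38, smaller in size than those of Jun, Egr1 and the brighter Junb probe set without that array. It was −0.56 between the 1a arrays and −1.52 between the others. Btg2, an antiproliferative protein linked to mRNA deadenylation, varied least, with 2807 and 2280 on the J arrays and 2384 and 2123 on the NJ arrays and a difference of 0.16 ± 0.39.

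**Figure D1:**
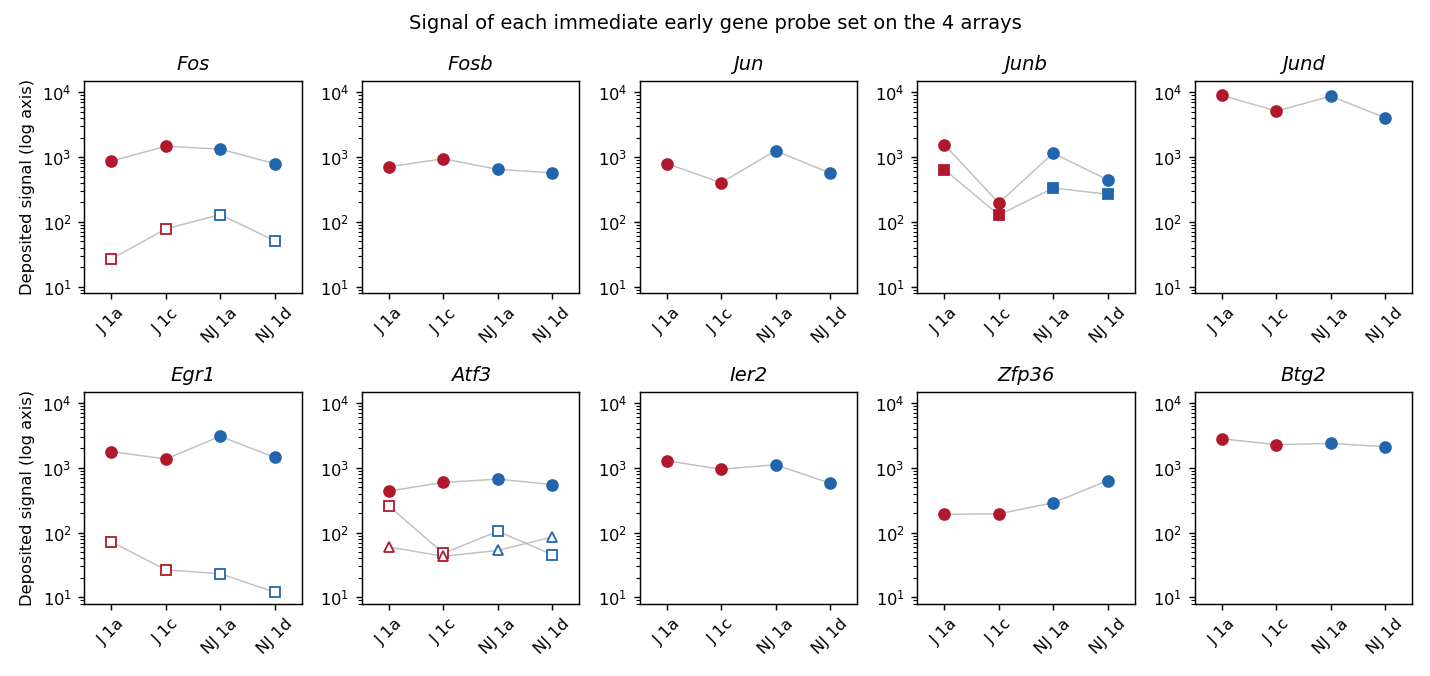
Deposited signal (log axis) of all 15 probe sets of the 10 genes on each of the 4 arrays, J in red and NJ in blue. Filled symbols are the 11 tested probe sets, open symbols the 4 that were too dim to test, and marker shapes separate the probe sets of a gene. Junb falls from 1557 on J 1a to 196 on J 1c, while Btg2 stays between 2123 and 2807.

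None of the 11 tested probe sets passed limma with Benjamini-Hochberg adjustment over 9316 probe sets (adjusted p = 0.999 for each). In all, limma called 0 of 9316, which is 0% of those tested, at an adjusted p under 0.05, and 8 with a term for the number format, none of them a member. At the unadjusted 0.05 level limma called 199 probe sets, or 2.14% of those tested, and 0 of 11 members. Zfp36 had the smallest unadjusted p of the members. Of the 11, 6 were lower in J and 5 higher, with a median difference of −0.02 beside −0.01 over all probe sets tested. Both J arrays lay above both NJ arrays for 1 of 11 (Fosb), where the share over all probe sets tested was 13.6%. They lay below for 1 of 11 (Zfp36), against 12.8%. Both shares are near those of all probe sets. With 2 arrays a group, 0.333 is the smallest two-sided p that exact permutation allows, and the standard errors of the members were 0.39 to 0.87.

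Leaving out J 1c moved most of these differences. Fosb then differed by 0.11, Fos by −0.32, Jun by −0.19 and Jund by 0.72. Atf3 differed by −0.62, Egr1 by −0.26 and Ier2 by 0.56, and Zfp36 and Btg2 by −1.20 and 0.38. The separation of Fosb was thus small without that array, and Fos took the opposite sign.

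**Figure D2:**
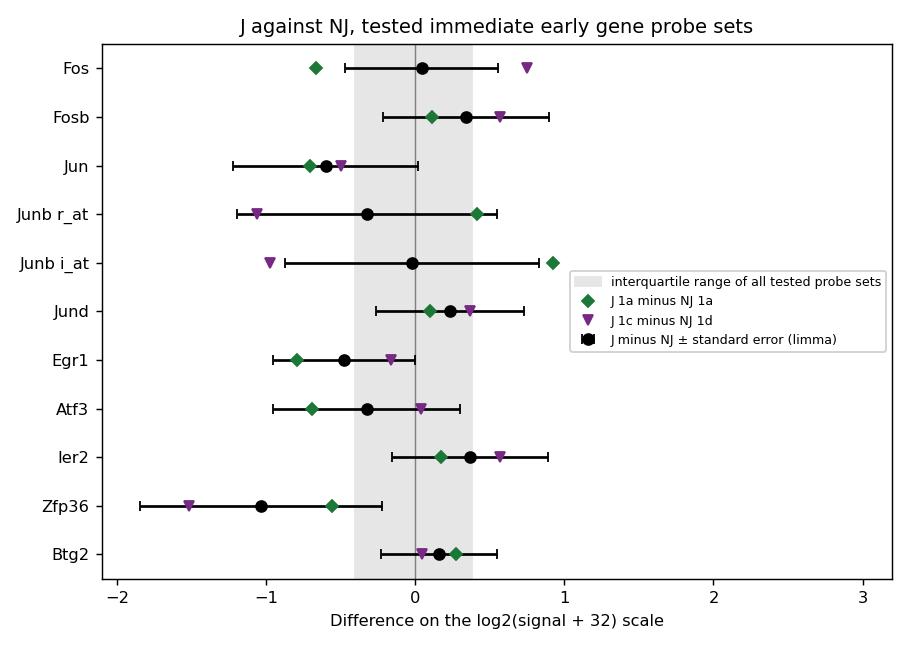
Difference of J minus NJ on the log2(signal + 32) scale for the 11 tested probe sets (black, with bars of 1 standard error from limma), with the difference of the 1a arrays (green diamonds) and of J 1c and NJ 1d (purple triangles). The grey band is the interquartile range of all tested probe sets. The differences run from −1.04 for Zfp36 to 0.37 for Ier2, and those of Fos, Atf3 and both Junb probe sets change sign between the pairs.

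Each array was then compared with the mean of the other 3. The median over the 11 tested probe sets was 0.13 on J 1a, 0.29 on NJ 1a, −0.45 on J 1c and −0.27 on NJ 1d, while that over all probe sets tested was 0.02, 0.03, 0.05 and 0.03. J 1a was the highest array for 5 of 11 (30.7% of all probe sets tested), NJ 1a for 3 (26.7%), J 1c for 2 (22.1%) and NJ 1d for 1 (20.6%). J 1a was the lowest for 2 of 11 (31.8%), NJ 1a for 1 (25.5%), J 1c for 4 (21.3%) and NJ 1d for 4 (21.5%). No array was thus highest or lowest for most members, and no test of a single array was made. With Junb counted once, J 1a was highest for 4 of 10 genes, NJ 1a for 3, J 1c for 2 and NJ 1d for 1.

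The arrays were also split by the label 1a. This split was added after the values were seen and is given without a test. Both 1a arrays lay above both other arrays for 6 of 11 tested probe sets, where the share over all was 23.1%, and below them for 0 of 11, against 22.9%. The 6 were those of Jun, Jund, Egr1, Ier2 and Btg2 and the brighter one of Junb. The difference of the 1a mean minus the mean of the others was 1.92 for Junb, 1.08 for Jund, 0.90 for Jun, 0.76 for Egr1, 0.60 for Ier2 and 0.32 for Btg2. It was positive within J and within NJ for each of the 6. For Jund it was 0.94 from J 1a to J 1c and 1.21 from NJ 1a to NJ 1d. For Jun it was 0.80 and 1.01, and for the brighter Junb probe set 2.66 and 1.18. Fos differed by −0.04, with −0.74 within J and 0.67 within NJ, and Fosb by −0.23, Atf3 by −0.26 and Zfp36 by −0.84.

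This split depended in part on the filter and on the scaling. With all 15 probe sets kept, 7 lay above and 1 below (22.8% and 21.3% of all), with a median of 0.32 beside 0.007. The median over the 11 probe sets was 0.60, beside −0.03 over all, after quantile normalisation, 0.66 beside 0.11 on the deposited scale and 0.34 beside −0.21 with each array centred on its median. Relative to all probe sets it was 0.63, 0.55 and 0.55. The count with both 1a arrays above the others was 7 on the deposited scale and 3 when arrays were centred on their medians, where 2 (Fosb and Atf3) lay below. The shares over all probe sets were then 28.1% above on the deposited scale, and 16.9% above and 31.8% below with median centring. With median centring Jun, Jund and the brighter Junb probe set were the 3 that kept the order, and the mean difference of Btg2 was −0.09. Without J 1c, 7 of 11 lay above NJ 1d on both 1a arrays and 1 below (33.7% and 31.8% of all), with a median of 0.38 beside −0.02.

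**Figure D3:**
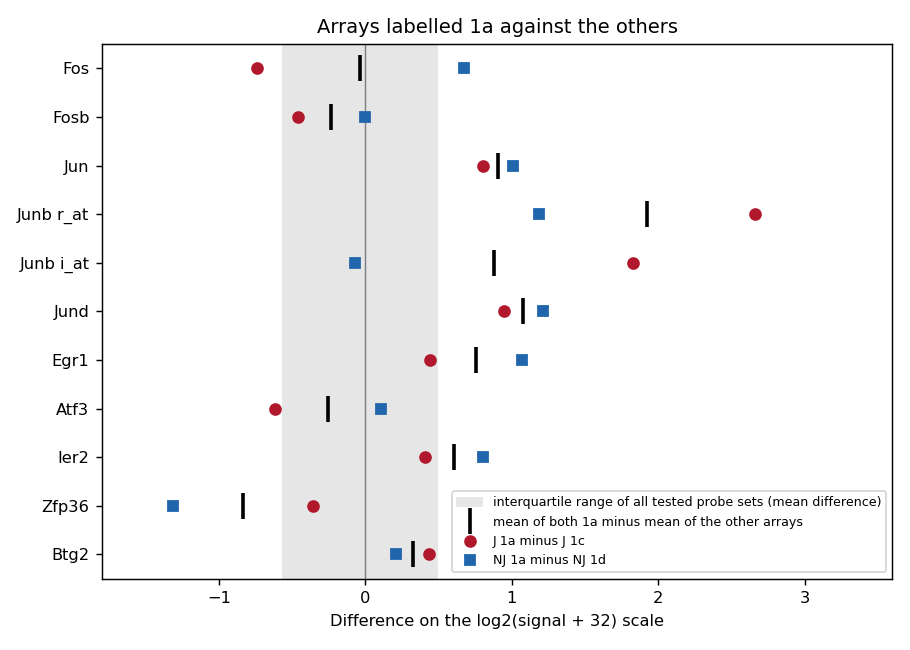
Differences on the log2(signal + 32) scale of J 1a minus J 1c (red circles), NJ 1a minus NJ 1d (blue squares) and of their mean (black bars) for the 11 tested probe sets, with the interquartile range of the mean difference over all tested probe sets in grey. Jun, Jund, Egr1, Ier2, Btg2 and the brighter Junb probe set are above 0 in both groups, with mean differences from 0.32 to 1.92, and with median centring the difference of Btg2 is −0.09.

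Among 40 other immediate early genes, 33 had a probe set and 30 were tested at their brightest one. Both 1a arrays lay above both others for 11 of 30, where 23.0% of all genes did at their brightest probe set, and below for 2, against 23.2%. The median difference of 1a minus the others was 0.58, beside −0.03 over all genes, and 0.29 beside −0.24 with median centring. That centring left 7 above and 5 below, where 16.1% of all genes lay above and 33.3% below. The 11 were Ccn1, Egr2, Errfi1, Ier3, Irf1, Klf4, Klf6, Nfil3, Nfkbia, Nr4a2 and Plk2, named here after their values were seen. Egr2, a relative of Egr1, had signals of 1497 and 846 on the 1a arrays against 472 on J 1c and 139 on NJ 1d. Klf4, a zinc finger factor, had 2127 and 1825 against 850.5 and 873. Nr4a1, a nuclear receptor induced by contraction, went the other way in J, with 1722 and 1460 on the 1a arrays against 3182 on J 1c and 1720 on NJ 1d. Dusp1, a phosphatase that switches off the kinases upstream, had 5123 and 4559 against 6892 and 5544. These 2 genes, also named after their values were seen, were highest on J 1c.

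For J against NJ, 20 of these 30 genes had the higher mean in J and 10 in NJ, and their median difference was 0.17 beside −0.01 over all genes. None passed limma over all probe sets, and 3 of 30 had an unadjusted p under 0.05, where 2.01% of all genes did. Ccn2, a matrix protein induced by stretch, had 792 and 457 on the J arrays and 41.5 and 125 on the NJ arrays, a difference of 2.55 ± 0.85. Gadd45g, a stress sensor, had 1644 and 964 on the J arrays and 3866 and 2393 on the NJ arrays, a difference of −1.26 ± 0.46 that was −1.27 between the 1a arrays and −1.26 between the others. Dusp6, a phosphatase of ERK, had 575 and 682 against 317 and 12.6, and its difference of 2.32 ± 0.97 was 0.83 between the 1a arrays and 3.80 between the others.

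Other relatives of the members were split. Of 14 tested, 7 were higher and 7 lower in J, and both 1a arrays lay above the others for 5 and below for 5. Over all genes the share was 23.0% above and 23.2% below, and these shares are the background for each such count in the lists that follow. Batf, a partner of Jun proteins, had 835 and 320 on the 1a arrays against 163 and 129.5, while Mafk had 271 and 760 on the J arrays and 1244 and 1008 on the NJ arrays (difference −1.36 ± 0.66). Of 13 upstream kinases and factors, 4 were higher and 9 lower in J, with 5 above and 4 below on the 1a arrays. Map3k1, a kinase above JNK, differed by −1.18 ± 0.81 and Braf, a kinase above ERK, by −1.19 ± 0.91 between J and NJ.

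Genes of other stress responses gave mixed orders. Heat shock genes had 5 of 11 higher and 6 lower in J, and 2 above and 3 below on the 1a arrays. Hspa1a, the inducible HSP70, had 81.7 on J 1a and 893 on J 1c against 1376 on NJ 1a and 467 on NJ 1d, so the arrays lowest and highest in it were both labelled 1a. Metallothionein and glucocorticoid target genes had 5 of 10 higher in J and 1 above and 3 below on the 1a arrays. Cdkn1a, a cell cycle inhibitor, had 203 and 591.5 on the J arrays and 943 and 671 on the NJ arrays. Of 8 hypoxia targets 1 was higher and 7 lower in J, with 4 above and 3 below on the 1a arrays. Ddit4, an inhibitor of mTORC1 that stress and glucocorticoids also induce, had 1194 and 662 on the 1a arrays against 141 on J 1c and 22.6 on NJ 1d. Bnip3, a mitophagy receptor, had 487 and 1370 on the J arrays and 1283 and 2479 on the NJ arrays.

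Injury cytokines and adhesion molecules were mostly dim, and 4 of 14 with a probe set were tested, of which 3 were higher in J and 2 were above the others on both 1a arrays. Tnf, an inflammatory cytokine, had 313 and 154 on the 1a arrays against 81.4 and 76.0. Genes of stress in the endoplasmic reticulum had 4 of 7 higher and 3 lower in J, with 0 above and 3 below on the 1a arrays. Herpud1, one of them, differed by 0.31 ± 0.43 between J and NJ. The per-array medians of these lists lay between −0.39 and 0.44. The other immediate early genes and the hypoxia targets had both 1a arrays above 0 and both others below it, as the members did, although for the hypoxia targets NJ 1d was close to 0 at −0.0043. The heat shock, glucocorticoid target, injury and endoplasmic reticulum lists, the relatives and the upstream kinases did not.

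**Figure D4:**
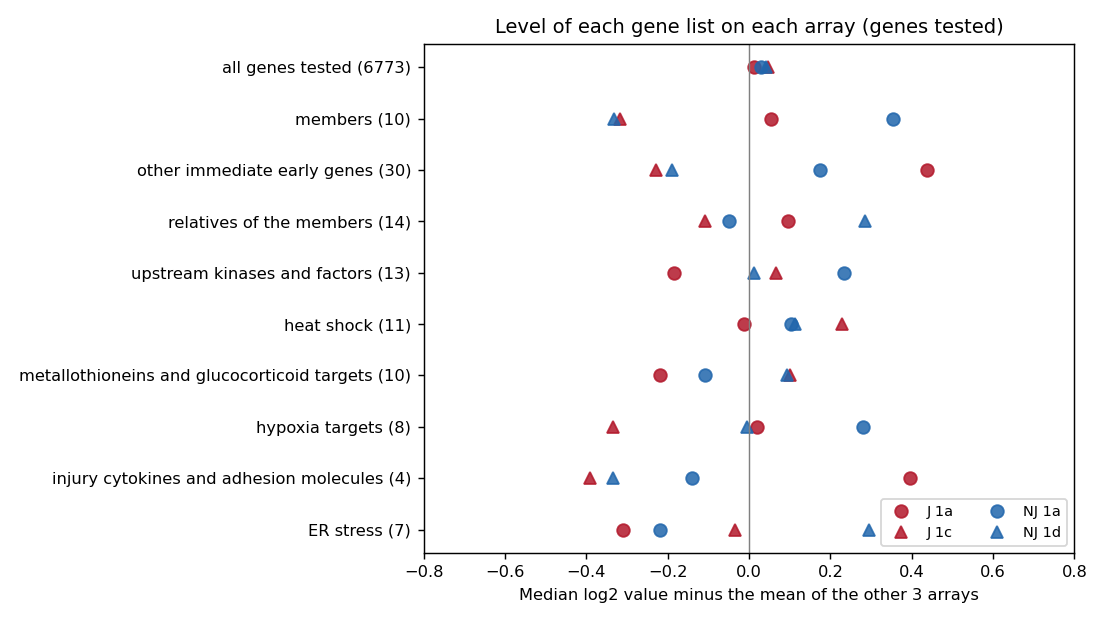
Median over each list of the log2 value of a gene on an array minus its mean on the other 3 arrays, with the number of genes tested in brackets; J in red and NJ in blue, arrays labelled 1a as circles and the others as triangles. For the 10 immediate early genes at their brightest probe set the values are 0.05 on J 1a, 0.35 on NJ 1a, −0.32 on J 1c and −0.33 on NJ 1d, and heat shock genes show no such order.

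Markers of cell types were set against the label in the same way, and in bulk tissue fewer cells of a type and less RNA per cell cannot be told apart. On the deposited scale the median signal itself was higher on both 1a arrays than on both others. The summed signal was higher there for 6 of 9 marker lists and lower for 0. Of the 8 lists of early and stress genes above, 2 had higher sums on both 1a arrays. The relatives, heat shock and endoplasmic reticulum lists had lower sums there. A sum follows its brightest genes, so the 28.1% of single probe sets above on this scale is no background for these counts. Smooth muscle and pericyte markers summed to 9413 on J 1a and 8566 on NJ 1a against 7270.5 on J 1c and 4138 on NJ 1d. Endothelial markers summed to 10334 and 10227 against 8248 and 8890. Fibroblast markers summed to 110321 and 62879 against 45609 and 54028.5, of which Dcn (named after its values were seen) gave 82874 on J 1a. Blood markers summed to 42320 and 30590 against 17183 and 29574, of which Hba-a1 gave 40486 on J 1a, and Schwann cell markers to 3953.5 and 5001 against 3836 and 3192. Muscle fibre markers, given above, were the sixth such list. Myeloid cell and neutrophil markers overlapped, at 4155 and 5035 against 3580.5 and 4279.5, as did adipocyte markers (9451 and 12236.5 against 11194 and 19728) and satellite cell markers (5015 and 3890 against 5466 and 4965).

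Counted gene by gene after quantile normalisation, the lists differed. Smooth muscle and pericyte markers had 5 of 7 above on both 1a arrays and 0 below, where 23.0% of all genes lay above and 23.2% below. Endothelial markers had 3 of 7 above and 1 below, fibre markers 5 of 12 and 3, and blood markers 2 of 3 and 0. Fibroblast markers had 2 of 9 above and 1 below, with a median difference of 1a minus the others of −0.02, and Schwann cell markers 2 of 5 and 0, with a median of −0.22. Myeloid markers had 1 of 9 above and 2 below, and adipocyte and satellite cell markers had 0 in either direction. With median centring, where 16.1% of all genes lay above and 33.3% below, smooth muscle and pericyte markers had 4 above and 1 below, endothelial markers 2 and 2, and fibroblast markers 0 and 3. The per-array medians on J 1a, NJ 1a, J 1c and NJ 1d were 0.75, 0.60, −0.20 and −1.18 for smooth muscle and pericyte markers. For endothelial markers they were 0.41, 0.44, −0.34 and −0.041. No marker was at 0. The part of these cells, of array scaling and of RNA quality in the members' levels was not tested.

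For J against NJ, smooth muscle and pericyte markers were higher in J for 7 of 7 tested, fibroblast markers for 6 of 9, myeloid markers for 4 of 9, endothelial markers for 2 of 7, Schwann cell markers for 1 of 5, satellite cell markers for 4 of 5, adipocyte markers for 1 of 4, blood markers for 3 of 3 and muscle fibre markers for 4 of 12. Over all genes tested, 3316 of 6773 were higher in J. None of these genes passed limma over all probe sets.

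Among the 4658 tested probe sets above the median brightness, the named genes outside the group whose pattern was most like the mean of its 11 tested probe sets were Psma7, Mrpl51, Scarb1, Fam118b and Cdh5. Their Pearson coefficients over the 4 arrays lay between 0.9987 and 0.9999, and 10 tested probe sets of any brightness reached the lowest of these. With only 4 points high coefficients arise readily, and 668 of 9316 probe sets were above 0.9. The mean did not stand for every member. Its coefficient was 0.62 to 0.95 with the tested probe sets of Jun, Junb, Jund, Egr1, Ier2 and Btg2. With Fosb it was −0.71, with Zfp36 −0.32, with Atf3 −0.29 and with Fos −0.11. Scarb1, a lipoprotein receptor, had signals of 1811 and 1996 on the 1a arrays against 1223 and 1325 on the others. Cdh5, the cadherin of endothelial junctions, had 1962 and 2145 against 1405.5 and 1505.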

How the data were processed

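The deposited table of the authors holds a linear intensity for every probe set on every array. How it was computed from the scans is not given in the sources used here. After trimming 2% at each end the column means lay between 800.5 and 800.6, so the deposited columns had been scaled to a common level. Gene symbols came from the annotation of the platform.

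Intensities were taken as log2(value + 32). Since the medians of the arrays differed by 0.38, more than 0.1, all 12488 rows were quantile normalised, and the 66 controls were then left out. The 9316 probe sets with a mean above the 25th percentile were tested in R 4.3.3 by lmFit and a trended eBayes of limma 3.58.1 and adjusted by Benjamini-Hochberg over these probe sets. The script was tested on simulated data. Python 3.11.15 and matplotlib 3.10.9 made the figures.

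The members and gene lists were chosen with earlier results of these data known. Lists are given at the brightest probe set of a gene, with counts and medians and no test. Every probe set of the 10 genes is given. From each other list up to 3 genes with the smallest unadjusted p could be named, and the 5 genes most like the members among those above the median brightness. Genes named outside this rule are marked in the text as chosen after their values were seen. Other scales, pseudocounts and filters, no trend, a number-format term, each array left out and 1 value per gene were tried as alternatives.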

Additional observations from a re-analysis of the deposited data

How the results depend on the processing

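Of 131 values of single member probe sets under the alternatives, 120 kept their direction and 11 did not, and none passed the test. The other filters, the fit without the trend and the number-format term leave each difference as it was. Their values kept direction by construction and say nothing of how stable it is. Besides the settings that leave out an array, Junb changed sign at its dimmer tested probe set with a pseudocount of 100 (0.022). With each array left out, the difference of J minus NJ ranged from −0.94 to 0.86 and from −1.69 to 0.98 at the Junb probe sets, from −0.36 to 0.84 for Jund, from −0.32 to 0.42 for Fos, from −0.99 to 0.059 for Egr1, from −0.032 to 0.79 for Ier2 and from −0.057 to 0.38 for Btg2. Jun (−1.08 to −0.10), Fosb (0.11 to 0.59), Atf3 (−0.62 to −0.016) and Zfp36 (−1.73 to −0.38) kept their sign in all settings in which they were tested but varied widely in size, and Zfp36 was too dim for the filter at the median. Over all probe sets, limma called 8 with a number-format term (4 higher, 4 lower) and 0 to 4 with an array left out (4 without J 1a), none of them a member; a group left with 1 array was assumed to vary like the other. The median over the members ranged from −0.36 to 0.26. With median centring 3 members lay above the others on both 1a arrays and 2 below, where 16.9% of all lay above and 31.8% below. The cause of the split was not tested. No paired analysis was possible because, by the replicate labels, 1c and 1d each occur in 1 group. The number-format term splits the arrays as a pairing of 1a with 1a and of 1c with 1d would, so its 8 calls are also those of such a pairing.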
